A study of Mus musculus with 12 samples.

Results

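The expression of 10 genes of the Hippo pathway and its effector YAP was followed in livers of mice that lack *Cdk1* in hepatocytes. The members were taken by gene symbol as *Yap1*, *Wwtr1*, *Tead1*, *Lats1*, *Lats2*, *Cyr61*, *Ctgf*, *Ankrd1*, *Amotl2* and *Axl*, and all 10 were found among the 47069 genes listed. The data are 12 libraries of polyadenylated RNA from mice at postnatal day 14 (P14), with 3 libraries in each of 4 groups. The groups are isolated hepatocytes and undissociated whole liver, each of WT and of Cdk1 Liv-/- mice. Cdk1 Liv-/- mice carry floxed *Cdk1* alleles and a Cre transgene under the *Albumin* promoter, so the deletion is aimed at hepatocytes, and all groups had a standard diet and received no further agent. Hepatocytes were isolated before RNA extraction, whereas whole liver was frozen directly. The study's methods speak of biological replicates throughout, while the labels do not tie libraries to separate animals, so the p-values given here measure the spread between these libraries.

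In the Hippo pathway, the kinases LATS1 and LATS2 phosphorylate the coactivators YAP (*Yap1*) and TAZ (*Wwtr1*), which keeps them in the cytoplasm and marks them for degradation. Unphosphorylated YAP and TAZ enter the nucleus and bind TEAD factors, since neither has a DNA binding domain of its own. *Cyr61* and *Ctgf*, which encode secreted matricellular proteins, *Ankrd1*, a nuclear ankyrin repeat protein, *Amotl2*, an angiomotin that holds YAP back in turn, and *Axl*, a receptor tyrosine kinase, are widely used as readouts of this activity. In the liver the pathway is known for its control of organ size, and YAP is known to be more abundant in bile duct cells than in hepatocytes. Much of the regulation acts on the proteins, which these data did not measure.

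TEAD factors recognise the letters GGAATG, and the sequences around these letters upstream of the members are shown to let a reader see where and in which context they occur. RefSeq start sites on build GRCm38.p6 were found for 8 of the 10 members. The 250 bases upstream of the start held GGAATG on either strand in 6 of them, and 12.6% of all 32851 windows of that kind did. Each line gives 30 bases in the 5′ to 3′ direction of the gene, with the match in capitals, and CATTCC is the same motif read on the opposite strand.
*Cyr61*, chr3:145650071-145650100, minus strand, match at -103: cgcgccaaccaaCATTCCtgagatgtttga
*Ankrd1*, chr19:36120037-36120066, minus strand, match at -210: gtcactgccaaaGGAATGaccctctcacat
*Ankrd1*, chr19:36119950-36119979, minus strand, match at -123: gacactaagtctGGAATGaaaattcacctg
*Amotl2*, chr9:102717727-102717756, plus strand, match at -65: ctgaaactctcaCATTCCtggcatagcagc
*Axl*, chr7:25788949-25788978, minus strand, match at -233: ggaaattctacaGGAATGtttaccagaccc
*Yap1*, chr9:8004720-8004749, minus strand, match at -141: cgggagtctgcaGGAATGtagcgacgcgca
*Wwtr1*, chr3:57576029-57576058, minus strand, match at -136: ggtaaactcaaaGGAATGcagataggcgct

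The whole upstream stretch is shown for *Cyr61*, the member with the largest fitted differences in both compartments when 0.5 is added to FPKM, at chr3:145649986-145650235 on the minus strand.
*Cyr61* upstream: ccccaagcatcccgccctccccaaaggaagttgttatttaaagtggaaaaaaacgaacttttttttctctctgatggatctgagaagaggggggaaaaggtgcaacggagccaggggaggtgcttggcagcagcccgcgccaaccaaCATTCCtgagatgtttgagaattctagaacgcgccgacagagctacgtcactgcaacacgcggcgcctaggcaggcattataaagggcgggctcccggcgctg
The AP-1 motif TGANTCA, bound by FOS and JUN dimers, was in 0 of the members' upstream stretches and in 6.75% of all. In GENCODE M21 the annotated bounds of *Ankrd1* and *Amotl2* reach farther upstream than these RefSeq starts, so their matches lie inside those bounds. A match describes these windows only, and enhancers farther away were not searched.

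*Cyr61* and *Ankrd1* rose with loss of *Cdk1* in isolated hepatocytes and in the whole organ. *Ctgf* and *Axl* passed the test as higher in whole liver, where they depended on single libraries and on scaling, and their fitted differences in isolated hepatocytes were negative without passing it. *Amotl2* passed in neither. The coactivator genes *Yap1* and *Wwtr1* passed as modestly higher in both compartments, but their hepatocyte calls were lost under 7 and 5 of 16 alternatives and both calls of *Yap1* with size factors. The kinase genes *Lats1* and *Lats2* passed in neither.

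Differences between genotypes are log2 fold changes of FPKM + 0.5, fitted with limma across 17386 genes whose mean over all libraries reached 0.1 FPKM, and FPKM counts fragments per length of transcript and per size of library. All 10 members met this filter, *Ankrd1* through the groups other than WT hepatocytes, where its mean was 0.00333 FPKM. A gene passed at a Benjamini-Hochberg adjusted p of at most 0.1 over all genes tested. In hepatocytes 4 of the 10 members passed, all of them higher, where 18.7% of all genes passed and 12.1% passed as higher. In whole liver 7 of the 10 passed, all higher, against a background of 45.6% of all genes and 38.0% passing as higher. The high background in whole liver came with a shift of all genes, whose median log2 fold change was 0.18 there and 0.05 in hepatocytes. The members' median was 0.41 in whole liver and 0.26 in hepatocytes. With the further requirement of a log2 fold change of at least 1, *Cyr61* remained in hepatocytes, where 4.20% of all genes met this bar as higher, and *Cyr61* and *Ankrd1* in whole liver, where 4.59% did.

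**Figure D1:**
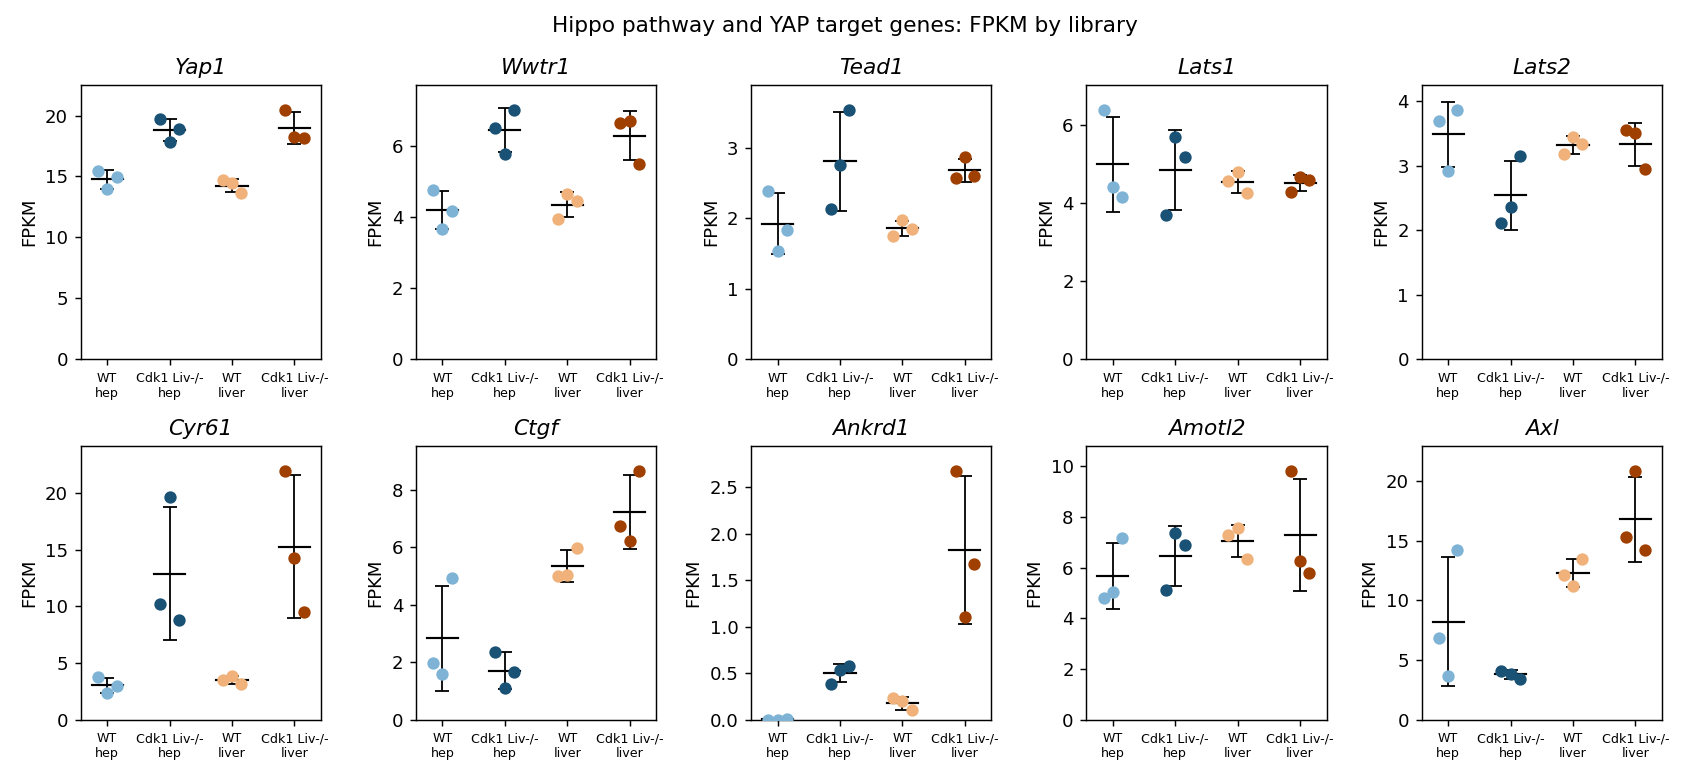
FPKM of each of the 10 genes on a linear axis from 0, with 1 point per library, a horizontal line at the mean and a bar of 1 SD (n = 3 libraries in each of the 4 groups). For *Cyr61* and *Ankrd1* every Cdk1 Liv-/- library lies above every WT library of its compartment, while *Axl* in WT hepatocytes spans 3.68 to 14.21 FPKM.

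*Cyr61* (ENSMUSG00000028195, now also named *Ccn1*) lies on chromosome 3 at 145646976 to 145649981 in GENCODE M21 (GRCm38) and has 5 exons. It stood at 3.73, 2.36 and 2.98 FPKM in WT hepatocytes and at 10.24, 19.61 and 8.83 FPKM in Cdk1 Liv-/- hepatocytes. The lowest Cdk1 Liv-/- library was above the highest WT library, and the Cdk1 Liv-/- libraries also differed more among themselves. In WT whole liver it was at 3.52, 3.89 and 3.13 FPKM, against 21.97, 14.28 and 9.52 FPKM in Cdk1 Liv-/- whole liver, again without overlap. The log2 fold change was 1.86 (SE 0.32, limma adjusted p = 0.0183) in hepatocytes and 1.90 (SE 0.29, adjusted p = 0.00733) in whole liver, which is 3.63-fold and 3.73-fold. With 0.5 added to FPKM these are the largest fitted differences among the 10 members in both compartments, and they stayed past the threshold under all 16 alternatives run in each. With 0.1 added those of *Ankrd1* were larger, at 2.53 against 1.99 in hepatocytes and 2.75 against 2.01 in whole liver. The 2 compartments were not told apart for this gene, with a difference of -0.04 (SE 0.45) on the log2 scale and an adjusted p of 0.972.

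*Ankrd1* (ENSMUSG00000024803), on chromosome 19 at 36111961 to 36120099, had the lowest mean of the members in all 4 groups, though not the lowest value in every library. It is listed at 0, 0 and 0.01 FPKM in WT hepatocytes and at 0.39, 0.54 and 0.58 FPKM in Cdk1 Liv-/- hepatocytes. From the spacing of the lowest FPKM values these correspond to about 0, 0 and 0.919 reads against about 30.7, 41.5 and 39.2 reads. WT whole liver held 0.23, 0.20 and 0.10 FPKM, and Cdk1 Liv-/- whole liver 2.68, 1.11 and 1.68 FPKM, estimated at 249, 102 and 157 reads. No library of a Cdk1 Liv-/- group reached down to its WT group.

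The fitted log2 difference of *Ankrd1* was 0.99 (SE 0.10, limma adjusted p = 0.00448) in hepatocytes and 1.73 (SE 0.25, adjusted p = 0.00664) in whole liver. With WT hepatocytes near 0 the size depends on the pseudocount, so it ran from 0.58 with 1 added to 2.53 with 0.1 added in hepatocytes, and the direction and the call held in all 15 alternatives that kept the gene. The fitted difference in whole liver was 1.23 to 2.75 on the log2 scale over its alternatives. For the same reason the changes in the 2 compartments are not compared for this gene. The difference between them was -0.74 (SE 0.29, limma adjusted p = 0.157) with 0.5 added and -0.21 (adjusted p = 0.819) with 0.1 added.

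*Ctgf* (ENSMUSG00000019997, chromosome 10 at 24595442 to 24598683), the close relative of *Cyr61*, did not move with it in isolated hepatocytes. WT hepatocytes held 1.99, 1.58 and 4.92 FPKM and Cdk1 Liv-/- hepatocytes 2.37, 1.09 and 1.67 FPKM, so the groups overlapped and WT replicate 3 stood apart. The log2 difference was -0.50 (SE 0.41, limma adjusted p = 0.464), and without that library it was -0.08 (adjusted p = 0.894). In whole liver *Ctgf* was at 5.0, 5.05 and 5.98 FPKM in WT and at 6.75, 6.23 and 8.67 FPKM in Cdk1 Liv-/-, with no overlap. This difference of 0.39 (SE 0.14, limma adjusted p = 0.0739) passed, but not without Cdk1 Liv-/- replicate 3 (0.26, adjusted p = 0.134), nor after scaling with median-ratio size factors (0.19, adjusted p = 0.40). Leaving out WT replicate 1, WT replicate 2 or Cdk1 Liv-/- replicate 1 also ended the call, with adjusted p of 0.196, 0.179 and 0.109.

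The ratio of *Cyr61* to *Ctgf* within a library separated the genotypes within each compartment. It was 1.87, 1.49 and 0.606 in WT hepatocytes and 4.32, 18.0 and 5.29 in Cdk1 Liv-/- hepatocytes. In whole liver it was 0.704, 0.770 and 0.523 in WT and 3.25, 2.29 and 1.1 in Cdk1 Liv-/-. A ratio within a library does not depend on the scaling between libraries. Across compartments it did not separate them, since WT hepatocytes at 1.87 and 1.49 lay above Cdk1 Liv-/- whole liver replicate 3 at 1.1.

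*Axl* (ENSMUSG00000002602, chromosome 7 at 25757273 to 25788705) had the largest SD of the members among the WT hepatocyte libraries, with 6.82, 3.68 and 14.21 FPKM. Cdk1 Liv-/- hepatocytes held 4.10, 3.87 and 3.42 FPKM. The value of 3.42 FPKM lay below the lowest WT library and the others in the lower part of the WT range. The log2 difference of -0.84 (SE 0.43, limma adjusted p = 0.26) did not pass and was -0.37 (adjusted p = 0.456) without WT replicate 3, but it did pass without WT replicate 2 (-1.28, adjusted p = 0.079). In whole liver the values were 12.17, 11.25 and 13.51 FPKM in WT and 15.29, 20.89 and 14.23 FPKM in Cdk1 Liv-/-. The groups did not overlap there and the difference was 0.42 (SE 0.16, limma adjusted p = 0.0856). It failed under 9 of 16 alternatives, size factors among them (0.20, adjusted p = 0.381), and without 5 of the 6 libraries in turn, the exception being Cdk1 Liv-/- replicate 3. The difference between the compartments was -1.26 (SE 0.49, limma adjusted p = 0.154), and without WT hepatocyte replicate 2 it passed (-1.69, adjusted p = 0.0207).

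*Amotl2* (ENSMUSG00000032531, chromosome 9 at 102716672 to 102733418) was at 4.80, 5.03 and 7.17 FPKM in WT hepatocytes and at 5.13, 7.36 and 6.88 FPKM in Cdk1 Liv-/- hepatocytes. Whole liver held 7.28, 7.57 and 6.36 FPKM in WT and 9.83, 6.26 and 5.80 FPKM in Cdk1 Liv-/-. The genotypes overlapped in both compartments, with log2 differences of 0.18 (SE 0.20, limma adjusted p = 0.60) and 0.01 (SE 0.20, adjusted p = 0.974). The whole liver value was negative with size factors (-0.20).

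Of the coactivators, *Yap1* (ENSMUSG00000053110, chromosome 9 at 7931999 to 8004596) had the highest mean of the members in all 4 groups, though not the highest value in every library. It stood at 15.48, 13.94 and 14.93 FPKM in WT hepatocytes and at 19.68, 17.87 and 18.86 FPKM in Cdk1 Liv-/- hepatocytes. WT whole liver held 14.68, 14.44 and 13.63 FPKM and Cdk1 Liv-/- whole liver 20.47, 18.22 and 18.17 FPKM. The 4 groups thus formed a lower pair of WT and a higher pair of Cdk1 Liv-/-, with no overlap between genotypes. The log2 fold change was 0.34 (SE 0.08, limma adjusted p = 0.0529) in hepatocytes and 0.40 (SE 0.07, adjusted p = 0.00967) in whole liver, where it lay 0.22 above the median of all genes. With size factors both missed the threshold, at 0.26 (adjusted p = 0.105) and 0.18 (adjusted p = 0.123). Leaving out any 1 hepatocyte library other than Cdk1 Liv-/- replicate 2 also ended the hepatocyte call, with adjusted p of 0.107 to 0.136 and differences of 0.30 to 0.37.

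*Wwtr1* (ENSMUSG00000027803, chromosome 3 at 57455649 to 57575910), which encodes TAZ, was less abundant than *Yap1* throughout. WT hepatocytes held 4.76, 3.67 and 4.17 FPKM and Cdk1 Liv-/- hepatocytes 6.52, 5.79 and 7.02 FPKM. Whole liver held 3.95, 4.64 and 4.46 FPKM in WT and 6.66, 6.71 and 5.49 FPKM in Cdk1 Liv-/-. Neither compartment showed an overlap of the genotypes. The log2 fold change was 0.57 (SE 0.14, limma adjusted p = 0.0532) in hepatocytes and 0.48 (SE 0.10, adjusted p = 0.0191) in whole liver. The whole liver call held under all 16 alternatives, while the hepatocyte call was lost without WT replicate 2 or 3 or without Cdk1 Liv-/- replicate 1 or 3, with adjusted p of 0.114 to 0.145.

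*Tead1* (ENSMUSG00000055320, chromosome 7 at 112679318 to 112906807) encodes a DNA binding partner of both coactivators. Hepatocytes held 2.39, 1.54 and 1.83 FPKM in WT and 2.13, 2.75 and 3.54 FPKM in Cdk1 Liv-/-, with 1 WT library above the lowest Cdk1 Liv-/- library. Whole liver held 1.75, 1.97 and 1.85 FPKM in WT and 2.57, 2.87 and 2.60 FPKM in Cdk1 Liv-/-, without overlap. The fitted differences were alike, 0.44 (SE 0.22, limma adjusted p = 0.245) and 0.43 (SE 0.08, adjusted p = 0.0122), and the error in hepatocytes was larger. The whole liver call held under all 16 alternatives.

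Neither kinase gene passed. *Lats1* (ENSMUSG00000040021, chromosome 10 at 7681214 to 7716460) was at 6.40, 4.43 and 4.16 FPKM in WT hepatocytes and at 3.71, 5.69 and 5.19 FPKM in Cdk1 Liv-/- hepatocytes. In whole liver it was at 4.57, 4.81 and 4.26 FPKM in WT and at 4.28, 4.68 and 4.59 FPKM in Cdk1 Liv-/-. All of its groups overlapped, and the log2 differences were -0.03 (SE 0.22, limma adjusted p = 0.943) and -0.01 (SE 0.07, adjusted p = 0.944). After size factors, which remove the shift of all genes in whole liver, *Lats1* passed there as lower (-0.21, adjusted p = 0.0567).

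*Lats2* (ENSMUSG00000021959, chromosome 14 at 57689662 to 57758388), itself known as a target of YAP, was at 3.69, 2.92 and 3.87 FPKM in WT hepatocytes and at 2.11, 2.36 and 3.15 FPKM in Cdk1 Liv-/- hepatocytes. Whole liver held 3.18, 3.45 and 3.34 FPKM in WT and 3.55, 3.51 and 2.95 FPKM in Cdk1 Liv-/-. The genotypes overlapped in both, with log2 differences of -0.40 (SE 0.19, limma adjusted p = 0.215) in hepatocytes and 0.00 (SE 0.09, adjusted p = 0.993) in whole liver. The size-factor value in whole liver was -0.19.

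**Figure D2:**
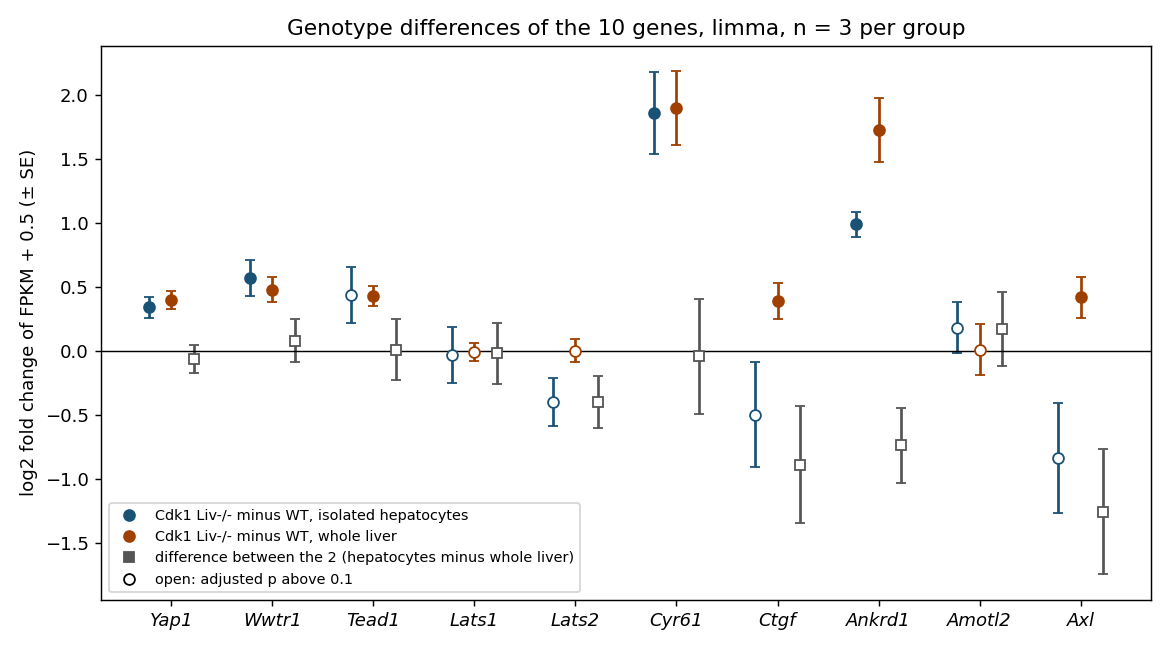
Log2 fold change of FPKM + 0.5 between the genotypes (limma, 3 libraries per group, bars are SE) in hepatocytes, in whole liver, and the difference between these changes, for each gene. Filled symbols passed an adjusted p of 0.1, and *Cyr61* stands highest at 1.86 and 1.90, while *Axl* and *Ctgf* lie on opposite sides of 0 in the 2 compartments.

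For 4 of the 10 members in hepatocytes and 7 of the 10 in whole liver every Cdk1 Liv-/- library was above every WT library. The same held for 20.6% of all genes in hepatocytes and 43.2% in whole liver. The 2 contrasts use separate libraries. Whether a member's change differed between the compartments was tested as an interaction in 1 limma fit of all 12 libraries. By this test 0 of the 10 members passed, where 9.85% of all genes did, and *Ankrd1* and *Axl* were the 2 with an unadjusted p under 0.05, as 23.6% of all genes were. The value of *Ankrd1* passed without Cdk1 Liv-/- whole liver replicate 2 (-0.98, adjusted p = 0.0886), but its size rests on the pseudocount as given above.

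Between WT hepatocytes and WT whole liver, 0 of the 10 members passed in limma, where 1.52% of all genes did, and 2 had an unadjusted p under 0.05, which is near the 18.8% of all genes that had. The two-sample test with q-values also passed 0. The 2 members with an unadjusted limma p under 0.05 were *Ctgf* and *Ankrd1*. *Ctgf* was lower in hepatocytes by 0.94 on the log2 scale (SE 0.36, limma adjusted p = 0.247). *Ankrd1* was lower there by 0.42 (SE 0.09, limma adjusted p = 0.127) with 0.5 added and by 1.39 (adjusted p = 0.0926) with 0.1 added. Both had every hepatocyte library below every whole liver library, as 20.7% of all genes had. Without WT hepatocyte replicate 3, where 17.7% of all genes passed, 4 members passed as lower in hepatocytes, *Ctgf* at -1.36 (adjusted p = 0.0315), *Axl* at -1.21 (adjusted p = 0.0593), *Amotl2* at -0.48 (adjusted p = 0.0618) and *Ankrd1* at -0.43 (adjusted p = 0.0752). *Yap1* differed by 0.05 (SE 0.07, adjusted p = 0.687) between the compartments.

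FPKM are per length of transcript, so mean levels can be ordered within a group. In WT whole liver the order was *Yap1* (14.2 FPKM), *Axl* (12.3), *Amotl2* (7.07), *Ctgf* (5.34), *Lats1* (4.55), *Wwtr1* (4.35), *Cyr61* (3.51), *Lats2* (3.32), *Tead1* (1.86) and *Ankrd1* (0.177). Of neighbours in this order, the library ranges of *Lats1* and *Wwtr1* and of *Cyr61* and *Lats2* overlapped. In Cdk1 Liv-/- whole liver *Cyr61* held the third place with a mean of 15.3 ± 6.28 FPKM (SD, n = 3), and its range overlapped those of *Axl* and *Amotl2* beside it. In Cdk1 Liv-/- hepatocytes *Cyr61* was second with 12.9 ± 5.86 FPKM, with a range that overlapped that of *Yap1* and stood above that of *Amotl2*. In WT hepatocytes each neighbouring pair overlapped except *Tead1* and *Ankrd1* at the end. *Yap1* exceeded *Wwtr1* in each of the 12 libraries, by 2.69-fold to 3.80-fold.

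Markers of other liver cells moved with several of these genes, so their levels are given beside them. The labelled tissue held its hepatocyte markers in all 12 libraries, with none of the 10 at 0 and *Alb* at 39898.06 FPKM or more. The summed FPKM of these markers was lower with the deletion, at 83058 to 91647 for WT against 56148 to 59295 for Cdk1 Liv-/- in the isolated cells and at 84703 to 87149 against 60419 to 67504 in the organ. Of the 10, 2 passed as higher and 2 as lower in hepatocytes, and 0 as higher and 4 as lower in whole liver, where 12.1% and 6.61% of all genes passed in those directions in hepatocytes and 38.0% and 7.53% in whole liver. The part of this fall in the values of other genes, which share the same total, was not tested. Of 10 Kupffer cell and macrophage markers, 1 passed as lower in Cdk1 Liv-/- hepatocytes, where the list's median log2 difference was -1.09, and 4 passed as higher in Cdk1 Liv-/- whole liver, near the background of 38.0%. Their summed FPKM was 325, 175 and 598 in WT hepatocytes, 203, 152 and 131 in Cdk1 Liv-/- hepatocytes, 460, 515 and 520 in WT whole liver and 604, 832 and 636 in Cdk1 Liv-/- whole liver, with none of the markers at 0. *Axl*, which macrophages are known to express, was highest in the library where this sum was highest and lowest where it was lowest. Of 13 stellate cell and fibroblast markers, 1 was lower in Cdk1 Liv-/- hepatocytes and 8 were higher in Cdk1 Liv-/- whole liver, against backgrounds of 6.61% of all genes passing as lower in hepatocytes and 38.0% passing as higher in whole liver. None was at 0 in any library. Their sum was 209, 125 and 437 FPKM in WT hepatocytes, 128, 129 and 110 in Cdk1 Liv-/- hepatocytes, 485, 482 and 565 in WT whole liver and 979, 1229 and 917 in Cdk1 Liv-/- whole liver. *Ctgf*, which stellate cells are known to express, was highest in WT hepatocyte replicate 3 among the hepatocyte libraries, which also held the highest sums of Kupffer cell, stellate cell and endothelial markers among them. The part of these cells in the results for *Axl* and *Ctgf* was not tested, and in bulk RNA fewer cells of a type cannot be told apart from less RNA per cell.

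**Figure D3:**
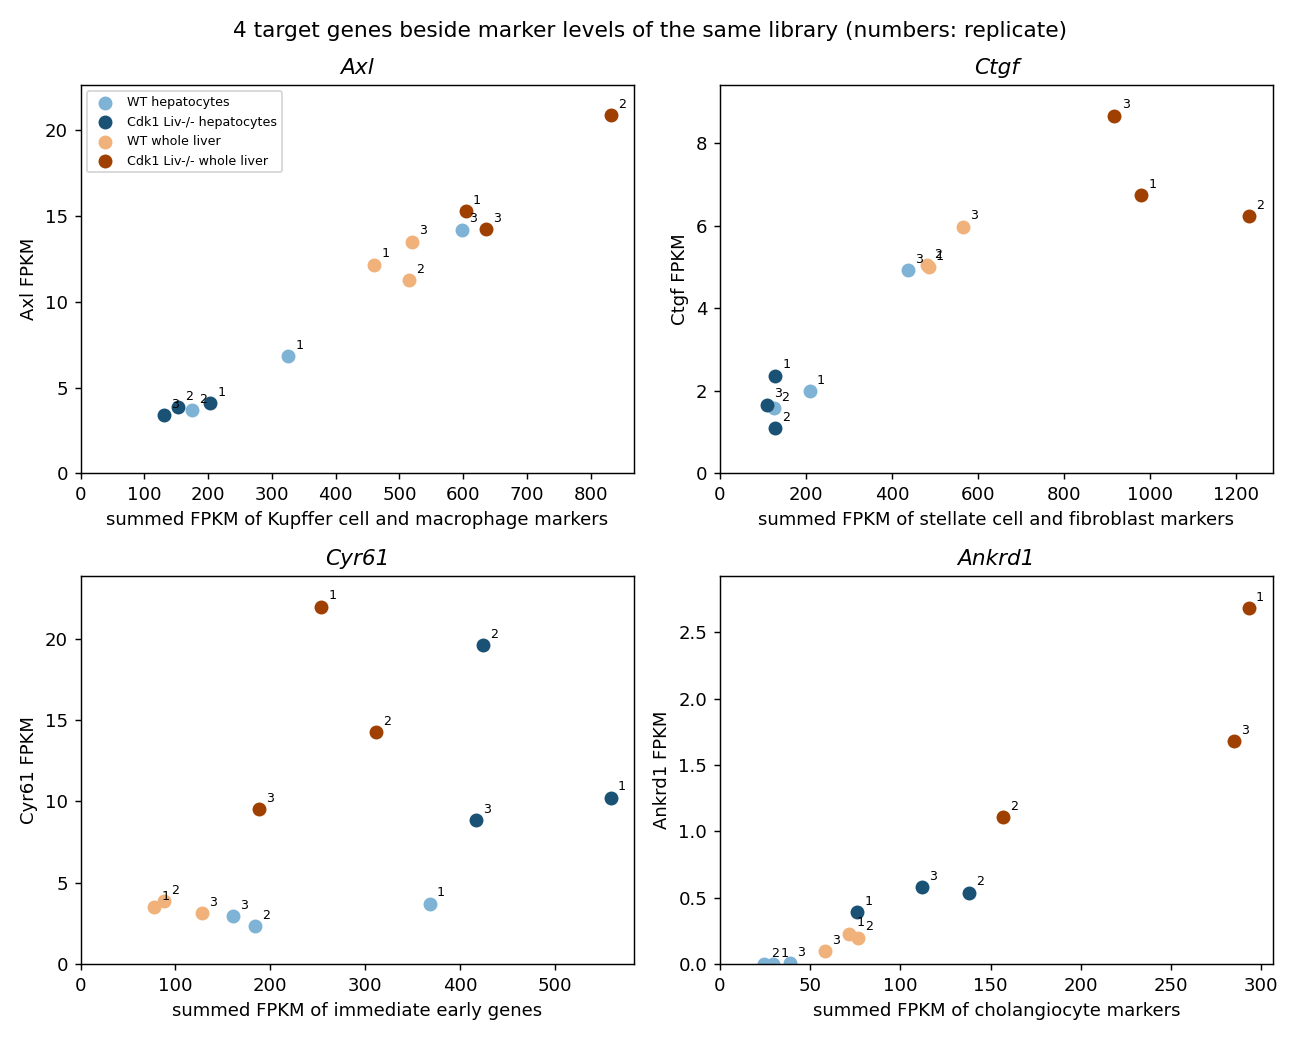
FPKM of *Axl*, *Ctgf*, *Cyr61* and *Ankrd1* (vertical axes) against the summed FPKM of a marker list in the same library (horizontal axes), 1 point per library, coloured by group and numbered by replicate. *Axl* and the Kupffer cell and macrophage sum are both lowest in Cdk1 Liv-/- hepatocyte replicate 3 (3.42 and 131 FPKM). *Cyr61* and the immediate early sum are both higher in every Cdk1 Liv-/- library than in every WT library of the same compartment.

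Endothelial markers fell in Cdk1 Liv-/- hepatocytes, with 11 of 12 lower against 6.61% of all genes, and their sum was 135 to 378 FPKM for WT and 59.0 to 92.1 FPKM for Cdk1 Liv-/-. In whole liver 2 of the 12 were higher, a smaller share than the 38.0% of all genes, the sum was 192 to 268 FPKM for WT and 240 to 302 FPKM for Cdk1 Liv-/-, and none was at 0 in any library. *Cyr61* and *Ankrd1* moved in the opposite direction in hepatocytes, and the part of endothelial cells in the levels of these genes was not tested. Cholangiocyte markers rose in both compartments, 5 of the 7 tested of 9 in each against 12.1% and 38.0% of all genes, and up to 2 of the 9 were at 0 in a library. Their sum was 29.4, 24.4 and 39.0 FPKM in WT hepatocytes, 76.0, 138 and 112 in Cdk1 Liv-/- hepatocytes, 71.8, 76.5 and 58.2 in WT whole liver and 293, 157 and 285 in Cdk1 Liv-/- whole liver. *Spp1* supplied most of this sum in the Cdk1 Liv-/- hepatocytes, where its mean was 92.8 FPKM. *Spp1*, a bile duct marker that injured hepatocytes can also express, rose by 2.20 on the log2 scale in hepatocytes (SE 0.33, limma adjusted p = 0.0132). Whether these transcripts came from bile duct cells or from hepatocytes was not tested.

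Immediate early genes such as *Fos* and *Egr1* are induced within minutes by tissue handling, and *Cyr61* was first known as a gene of that kind. Of 15 on the list, 7 were higher in Cdk1 Liv-/- hepatocytes and 14 in Cdk1 Liv-/- whole liver, where 12.1% and 38.0% of all genes passed as higher. Their sum was 368, 184 and 161 FPKM in WT hepatocytes and 559, 424 and 417 FPKM in Cdk1 Liv-/- hepatocytes. In whole liver it was 77.3, 88.3 and 128 FPKM in WT and 254, 311 and 188 FPKM in Cdk1 Liv-/-, so this sum stood above WT in the same libraries as *Cyr61*. Between the WT compartments the hepatocyte sums were all above the whole liver sums, and *Cyr61* differed by -0.20 on the log2 scale (SE 0.17, limma adjusted p = 0.526). In WT hepatocytes *Zfp36*, *Egr1* and *Ier2* were the largest terms of the sum, with means of 67.1, 38.0 and 29.3 FPKM. Of the 15 genes, 0 passed between WT hepatocytes and WT whole liver, where 1.52% of all genes did. Some lay higher in WT hepatocytes without overlap, such as *Jun* (2.07 on the log2 scale) and *Fos* (1.97). Others overlapped, among them *Egr1*, *Dusp1* and *Nr4a1* with log2 differences of 1.23, 1.05 and 0.74. *Fosb*, *Klf6* and *Atf3* also overlapped, at -0.01, -0.05 and -0.30. The part of handling in the level of *Cyr61* was not tested.

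Beyond the members, the kinase cassette with its adaptors and upstream inputs was followed over 24 genes. In hepatocytes 2 rose and 2 fell, or 16.7% of the list, which is below the 18.7% of all genes, and its median log2 fold change was 0.12 against 0.05 for all genes. *Map4k4*, a kinase that can activate LATS, rose by 1.29 (SE 0.30, limma adjusted p = 0.0485) and *Rassf1*, a scaffold of the MST kinases, by 1.05 (SE 0.19, adjusted p = 0.0214). *Dchs1* and *Fat4*, the large cadherins that pair between cells, were lower, by -0.97 (SE 0.21, adjusted p = 0.0409) and -0.38 (SE 0.11, adjusted p = 0.083). In whole liver 15 rose and 1 fell, or 66.7% of the list against 45.6% of all genes, with a median of 0.36 against 0.18 for all genes. *Rassf1* (1.45, SE 0.11, limma adjusted p = 0.000928), *Map4k4* (1.16, SE 0.10, adjusted p = 0.00166) and *Ajuba* (1.03, SE 0.10, adjusted p = 0.00203), a LIM protein that restrains LATS, led the list. *Nf2*, which encodes the upstream activator Merlin, was the gene that fell, by 0.24 (SE 0.06, adjusted p = 0.0299).

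*Rassf1* was at 4.90, 3.56 and 6.08 FPKM in WT hepatocytes and at 9.66, 10.61 and 10.90 FPKM in Cdk1 Liv-/- hepatocytes. In whole liver it was at 4.44, 4.62 and 4.89 FPKM in WT and at 11.67, 15.15 and 14.20 FPKM in Cdk1 Liv-/-. Its genotypes were separate in both compartments, unlike those of the kinases *Lats1* and *Lats2*. *Map4k4* was at 5.88, 3.99 and 10.24 FPKM in WT hepatocytes and at 16.87, 16.08 and 15.09 FPKM in Cdk1 Liv-/- hepatocytes, also without overlap, and its highest WT value was in replicate 3.

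Among the other TEAD genes and VGLL cofactors, which compete with YAP for TEAD, 4 of 7 passed the expression filter, and *Vgll1*, *Vgll2* and *Vgll3* did not. In hepatocytes 0 of the 4 passed, while in whole liver *Tead4* (0.59, SE 0.09, limma adjusted p = 0.00686) and *Tead2* (0.50, SE 0.14, adjusted p = 0.0441) were higher, a share near the 45.6% of all genes that passed there. *Tead2* was at 5.05, 4.53 and 7.10 FPKM in WT hepatocytes, 4.78, 4.26 and 3.30 in Cdk1 Liv-/- hepatocytes, 5.83, 8.52 and 7.84 in WT whole liver and 9.67, 10.93 and 11.07 in that of Cdk1 Liv-/-. Of the summed FPKM of *Tead1* to *Tead4*, *Tead1* made up 13.3% to 19.0% in hepatocytes of WT and 17.1% to 29.9% in those of Cdk1 Liv-/-. In whole liver its share was 11.6% to 12.5% for WT and 12.6% to 14.1% for Cdk1 Liv-/-. The sum itself was 11.4 to 13.7 FPKM in the WT hepatocyte libraries and 11.4 to 12.4 FPKM in those of Cdk1 Liv-/-. In whole liver it lay between 14 and 17 FPKM for WT and between 19.7 and 20.7 FPKM for Cdk1 Liv-/-.

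A list of 16 further YAP and TAZ targets, of which 15 passed the filter, had 4 genes higher and 1 lower in hepatocytes and 9 higher and 1 lower in whole liver. The share that passed was 33.3% in hepatocytes and 66.7% in whole liver, against 18.7% and 45.6% of all genes. Its median log2 fold change was 0.19 in hepatocytes and 0.55 in whole liver, against 0.05 and 0.18 for all genes. *F3*, which encodes tissue factor, rose by 0.95 (SE 0.22, limma adjusted p = 0.0479) in hepatocytes and by 0.94 (SE 0.13, adjusted p = 0.00596) in whole liver. *Tgfb2*, a TGF-beta ligand, rose by 0.62 (SE 0.14, limma adjusted p = 0.0422) in hepatocytes and by 0.77 (SE 0.08, adjusted p = 0.00269) in whole liver. It was at 0.09, 0.02 and 0.19 FPKM in WT hepatocytes and at 0.51, 0.34 and 0.40 FPKM in Cdk1 Liv-/- hepatocytes. Whole liver held 0.39, 0.48 and 0.43 FPKM in WT and 1.12, 1.01 and 1.16 FPKM in Cdk1 Liv-/-. At these low levels the sizes depend on the 0.5 added and are not compared between compartments. *Gadd45a*, also a p53 target, rose by 0.95 in hepatocytes (SE 0.22, limma adjusted p = 0.045) and did not pass in whole liver (0.57, adjusted p = 0.184). *Myof*, a membrane repair protein, rose by 1.27 in whole liver (SE 0.09, limma adjusted p = 0.000739) and did not pass in hepatocytes (0.43, adjusted p = 0.156).

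*Igfbp3*, an IGF binding protein that is expressed by non-parenchymal liver cells, went the other way. It was at 27.64, 14.60 and 58.76 FPKM in WT hepatocytes and at 5.08, 3.75 and 3.78 FPKM in Cdk1 Liv-/- hepatocytes. Whole liver held 51.82, 49.80 and 54.83 FPKM in WT and 27.06, 22.53 and 29.68 FPKM in Cdk1 Liv-/-. The log2 fold change was -2.65 (SE 0.47, limma adjusted p = 0.0214) in hepatocytes and -0.98 (SE 0.11, adjusted p = 0.00312) in whole liver, and both comparisons were without overlap.

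**Figure D4:**
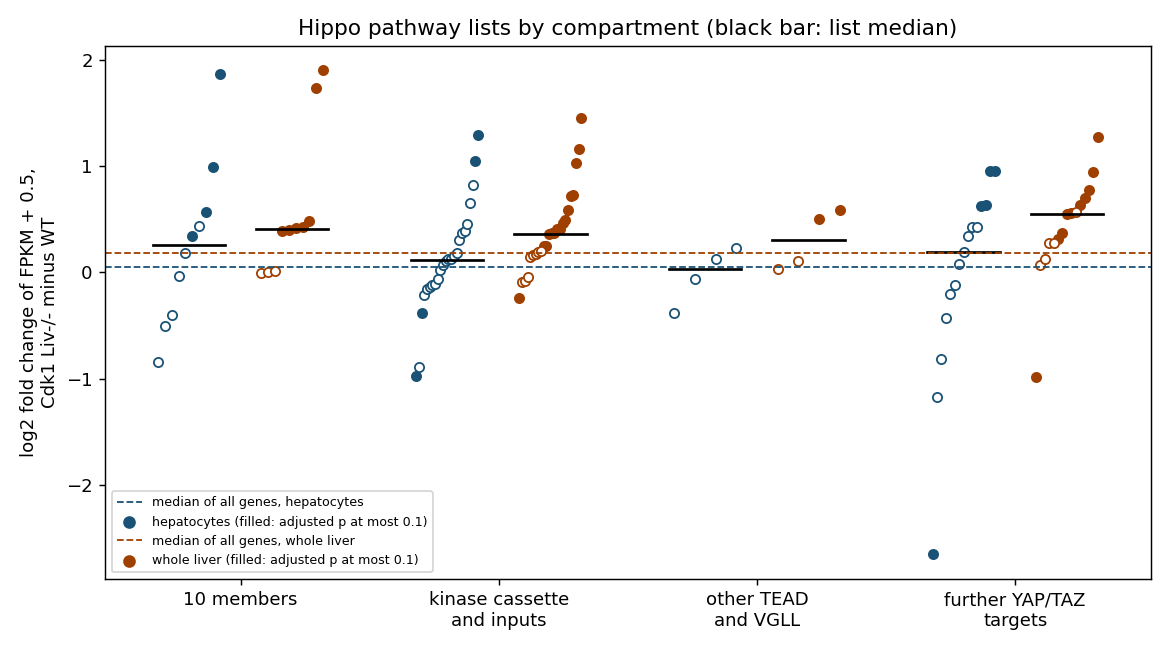
Log2 fold change of FPKM + 0.5 (Cdk1 Liv-/- minus WT) of every tested gene of the members and of 3 pathway lists in hepatocytes and whole liver, with filled points for an adjusted p of at most 0.1, black bars for list medians and dashed lines for the median of all genes (0.05 in hepatocytes and 0.18 in whole liver). The whole liver points of the kinase cassette and of the further targets lie mostly above the dashed lines, and *Igfbp3* is the lowest point of both compartments.

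The genes whose profiles over the 12 libraries were most like each member were found as the smallest root-mean-square distance between scaled log2 profiles among 12273 genes. They were *Cldn4* (0.178) and *Itga3* (0.207) for *Ankrd1*, an epithelial claudin and an integrin subunit. *Cldn4* ranged from 0.02 to 0.04 FPKM in hepatocytes of WT and from 0.55 to 0.80 FPKM in those of Cdk1 Liv-/-. In whole liver its range was 0.11 to 0.23 FPKM for WT and 2.63 to 4.87 FPKM for Cdk1 Liv-/-. For *Axl* they were *Rcn3* (0.123) and *Arhgap30* (0.124), for *Ctgf* *Gm13889* (0.179) and *Spsb1* (0.185), and for *Cyr61* *Fbxw8* (0.251) and *Kpna4* (0.262). *Yap1* was nearest to *Mapkapk5* (0.28) and *Tle4* (0.292), *Wwtr1* to *Fxr1* (0.257) and *Bsdc1* (0.281), *Tead1* to *Creb3l2* (0.236) and *Yy1* (0.248), and *Lats1* to *Asb7* (0.266) and *Slc30a4* (0.276). The nearest profiles to *Lats2* (*Ccdc142*, 0.443) and *Amotl2* (*Adar*, 0.555) were farther away. *Cyr61* and *Ctgf* shared neither of their nearest genes.

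The labels were checked on *Cdk1*, which fell by 1.40 on the log2 scale in hepatocytes (limma adjusted p = 0.0148) and by 0.85 in whole liver (adjusted p = 0.00353). It was at 20.38 to 28.16 FPKM in WT hepatocytes and 6.87 to 11.80 FPKM in Cdk1 Liv-/- hepatocytes, and at 21.50 to 25.32 and 11.66 to 14.17 FPKM in whole liver. Depth, estimated from the spacing of low values, was 34.7 to 49.8 reads per FPKM and kilobase, and the 12 columns sum to 649066 to 698265 FPKM. Cdk1 Liv-/- whole liver replicate 3 had *Xist* at 158.32 FPKM and 4 Y-linked genes at 0, whereas none of the remaining 11 exceeded 0.14 FPKM of *Xist*, and the study's methods state male mice. Without this library 6 of the 10 members passed in whole liver, where 37.2% of all genes did. Among the 6 were *Cyr61* at 2.19 (limma adjusted p = 0.00799), *Ankrd1* at 1.75 (adjusted p = 0.0261) and *Yap1* at 0.43 (adjusted p = 0.0268). Without WT hepatocyte replicate 3, where 13% of all genes passed, 2 members passed in hepatocytes, *Cyr61* (1.86, limma adjusted p = 0.0571) and *Ankrd1* (1.00, adjusted p = 0.019).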

How the data were processed

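Deposited values are FPKM to 2 decimals, 1 column per library. The authors made polyadenylated, strand-specific libraries, sequenced single-end reads of 75 bp, aligned them with STAR (version not given in the sources used here) and quantified genes on mm10 with RSEM 1.2.31, per the submitters' processing notes, without normalizing between libraries. Here limma 3.58.1 (R 4.3.3, eBayes with trend, two-sided) was fitted on log2(FPKM + 0.5) within each compartment, and over all 12 libraries for the interaction, and tested on simulated data. The authors used a two-sample test with q-values, kept as an alternative. Other alternatives changed the pseudocount (0.1 or 1), filter, scaling, trend, replicate block and libraries left out. RSEM estimates from shared sequence cannot be checked from FPKM. Depth was estimated from genes with transcripts of 300 to 900 bp and FPKM up to 0.5, of which 55.9% to 63.5% lay within 0.1 read of a whole number. Positions are from GENCODE M21 (46488 of 47069 genes found) and upstream sequences from RefSeq. Named genes were mainly the members, up to 3 genes per direction, list and comparison that passed, the 2 most abundant of each marker list and the 2 nearest profiles, of which a selection is given. Beyond these, all pathway genes flagged in the interaction are named, and so are further immediate early genes, whether or not they passed. *Spp1* is named for its abundance on the cholangiocyte list. The members and lists were chosen with earlier results of these data known, and nothing here was fixed independently of them.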

Additional observations from a re-analysis of the deposited data

Results flagged for a closer look

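No member was flagged. Among the 42 pathway genes tested around them, 9 (21.4%, where 9.85% of all genes passed) changed differently in hepatocytes and whole liver by the interaction of genotype and compartment in limma (adjusted p of at most 0.1), and for all 9 the change was lower in hepatocytes. Of the kinase cassette and its inputs these were *Sav1* (-0.53 on the log2 scale, adjusted p = 0.087), *Fat4* (-0.52, adjusted p = 0.0804), *Dchs1* (-0.88, adjusted p = 0.0966) and *Amotl1* (-1.05, adjusted p = 0.0899). The size for *Fat4* depends on the 0.5 added, since it was at 0.29 FPKM or less in every library. Of the TEAD genes it was *Tead2* (-0.88, adjusted p = 0.0854). Of the further YAP and TAZ targets they were *Myof* (-0.83, adjusted p = 0.0574), *Igfbp3* (-1.68, adjusted p = 0.0948), *Ccdc80* (-1.87, adjusted p = 0.0788) and *Rbms3* (-1.12, adjusted p = 0.0805). In the same test 10 of 12 endothelial, 6 of 13 stellate cell and 3 of 10 Kupffer cell and macrophage markers were lower, and their part in these 9 results was not tested. All 9 kept their sign when 1 library was left out, but 0 of the 9 passed without any 1 of the WT whole liver libraries or without Cdk1 Liv-/- whole liver replicate 2. Between 1 and 4 passed without any 1 of the others, except that all 9 passed without WT hepatocyte replicate 2. Without WT whole liver replicate 1 their adjusted p was 0.142 to 0.211, and 0.449% of all genes passed.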

How the results depend on the processing

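*Cyr61* and *Ankrd1* kept direction and call in both compartments under all alternatives that gave a value (the filter at a mean FPKM of 1 removed *Ankrd1*). Of members passed in hepatocytes, 4 became 2 with a replicate block (*Yap1*, limma adjusted p = 0.132, and *Wwtr1*, adjusted p = 0.125, were lost). The share of all genes that passed was 8.37% with the block, against 18.7% in the main fit. The 4 became 2 to 4 when 1 library was left out (2 without WT replicate 3 and without Cdk1 Liv-/- replicate 1 or 3), where 8.97% to 14.4% of all genes passed. In whole liver 7 became 5 to 6 when 1 library was left out, where 30.9% to 43.1% of all genes passed against 45.6% in the main fit. It became 6 with the replicate block (38% of all genes) and 5 with size factors (4 higher, *Lats1* lower, 34.2% of all genes). Without a filter on low values it was also 5 (25.9% of all genes). Same-numbered libraries deviated from their group means with correlations of -0.317 to 0.239 across genes and not every library correlated best with its own number, so the numbers were not taken as pairs. For the interaction 0 became 0 to 1 when 1 library was left out, where 0.449% to 15.2% of all genes passed. Between WT compartments 0 became 0 to 4 when 1 library was left out, where 0.00575% to 17.7% of all genes passed. The latter became 1 (*Ankrd1*) with a pseudocount of 0.1, where 1.4% of all genes passed. A fit of all 12 libraries gave 6 in hepatocytes, where 31.7% of all genes passed, with *Tead1* (0.443, limma adjusted p = 0.0807) added as higher and *Lats2* as lower. In whole liver it gave 5, where 33.9% of all genes passed. Signs changed only for differences that did not pass. With size factors these were *Lats2* (-0.19) and *Amotl2* (-0.20) in whole liver, *Yap1* (0.0814), *Lats1* (0.10) and *Cyr61* (0.11) in the interaction and *Wwtr1* (0.0656) between WT compartments, and with equal sums *Lats1* in whole liver (0.0237) and *Tead1* in the interaction (-0.000277). Leaving out 1 library gave *Lats1* -0.145 to 0.143 in hepatocytes, and in whole liver *Lats1* -0.0495 to 0.0294, *Lats2* -0.0391 to 0.0765 and *Amotl2* -0.211 to 0.146. In the interaction it gave *Lats1* -0.137 to 0.151, *Cyr61* -0.375 to 0.256, *Tead1* -0.144 to 0.165 and *Wwtr1* -0.0041 to 0.168. Between WT compartments it gave *Tead1* -0.111 to 0.14, *Lats1* -0.0729 to 0.21, *Wwtr1* -0.134 to 0.0339 and *Lats2* -0.0137 to 0.163. The causes were not tested. The level of *Ankrd1* in WT hepatocytes is at the limit of the depth.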
